A study of Homo sapiens with 6 samples.

Results

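The genes that carry a cell through G1 were followed as a set of 10 out of the 58735 genes in the count table. Their rows were taken by symbol, and the set was chosen with earlier results of these data known. They are the D-type cyclins CCND1, CCND2 and CCND3, the kinases CDK4 and CDK6, the E-type cyclins CCNE1 and CCNE2, and the inhibitors CDKN1B, CDKN2A and CDKN2B. RNA sequencing had been done on PANC1, an established human line from a pancreatic ductal carcinoma, left untreated, and on PANC1OR, the subline obtained from it by passaging in rising doses of oxaliplatin, a platinum drug that puts adducts on DNA. Each line was represented by 3 samples grown in DMEM with 10% serum, 1 library each, prepared with a kit for messenger RNA. Both groups come from 1 parental and 1 resistant population, so the p-values measure the spread between samples and not between separately derived resistant lines. The sample titles do not say whether the samples of a line were separate cultures. PANC1OR is described as holding its phenotype after drug withdrawal and after freezing, and the sources used here do not say whether oxaliplatin was in the medium when RNA was taken.

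D-type cyclins respond to growth factors and adhesion, and activate CDK4 and CDK6, which phosphorylate the retinoblastoma protein and so release E2F transcription factors. E2F raises the E-type cyclins, which activate CDK2 and commit the cell to S phase. The INK4 proteins p16 and p15, from CDKN2A and CDKN2B, block CDK4 and CDK6, while p27, from CDKN1B, binds complexes of cyclins with CDKs. In pancreatic ductal carcinoma CDKN2A is among the genes most often lost, and PANC1 is known as a line with a homozygous CDKN2A deletion.

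Library totals ran from 10199268 to 26394388 reads assigned to genes. The libraries of a line were not evenly spaced. Between the gene counts of PANC1OR replicates 1 and 2 the chi-square per degree of freedom was 4.21, beside 149 and 112 for each of these with PANC1OR replicate 3. Within PANC1 it ran from 12.5 to 34.7. Between the lines the lowest value was 85.3, for PANC1 replicate 2 with PANC1OR replicate 3. The highest was 151, for PANC1 replicate 1 with PANC1OR replicate 3. PANC1OR replicate 1 was at 109, 121 and 128 with PANC1 replicates 1 to 3. The values of PANC1OR replicate 3 within its own line were thus in the range found between the lines. PANC1OR replicate 3 stood apart from the other PANC1OR libraries in a way that followed the GC content of genes. Relative to the mean of PANC1OR replicates 1 and 2, its log2 level was 1.23 higher at the median of 2293 genes with over 60% GC, and -0.88 at the median of 3325 genes with under 40% GC. PANC1 replicate 2 had a smaller trend of the same sign, at 0.31 and -0.23. Results that rest on these libraries are therefore given with and without them, or with an offset for each library's GC trend. Summed duct and epithelial markers stood at 1059 to 1947 CPM in PANC1 and 680 to 1396 CPM in PANC1OR, where CPM is the read count scaled to library size with TMM factors, and CFTR, a duct marker, had 0 reads. KRT8 and KRT18 carried most of these sums and did not pass the test, while KRT19, a duct keratin, fell from 326 to 23.3 CPM (edgeR adjusted p = 0.000635) and SOX9 from 202 to 127 CPM (adjusted p = 0.0447). Summed markers of acinar, islet and endothelial cells stayed under 1 CPM in every library. Fibroblast markers, nearly all of them COL1A1, summed to 80.9 to 95.8 CPM in PANC1 and 110 to 292 CPM in PANC1OR, and leukocyte markers to 0.731 to 0.996 and 3.21 to 7.18 CPM. Their part in the results below was not tested.

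Cyclin D1 had the highest level of the set per exon length in both lines, and it about doubled in the resistant line. In CPM not divided by length CDK6 was higher by mean in PANC1, at 255 against 226 CPM. No reads at all came from the INK4 genes CDKN2A and CDKN2B in either line. The low-count filter kept 8 of the 10 genes. Of these, CCND1 and CCND2 rose in PANC1OR and none fell, by edgeR's quasi-likelihood test at a Benjamini-Hochberg adjusted p under 0.05 over all 18751 tested genes. That is 2 of 8, beside a background of 17.8% of all tested genes called in either direction (10.3% higher and 7.50% lower). Without PANC1OR replicate 3 the calls were 4 (3 higher and 1 lower), where the background was 44.1% (22.1% higher and 22.0% lower). With GC offsets they were 5 (4 higher and 1 lower), against a background of 39.1% (20.1% higher and 19.1% lower). With PANC1 replicate 2 and PANC1OR replicate 3 both left out they were 6 (5 higher and 1 lower) against 58.5% (29.0% higher and 29.5% lower), and with the replicate number as a block 2, both higher, against 12.4% (7.48% higher and 4.92% lower). The median log2 fold change of the 8 genes was 0.66, beside 0.04 over all tested genes, and it was 0.23 without PANC1OR replicate 3. None of the 8 passed the cutoffs that the series design text gives, an absolute log2 fold change over 2 at a false discovery rate under 0.01, which 6.25% of tested genes passed. In bulk RNA, less RNA per cell and fewer cells that express a gene cannot be told apart.

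**Figure D1:**
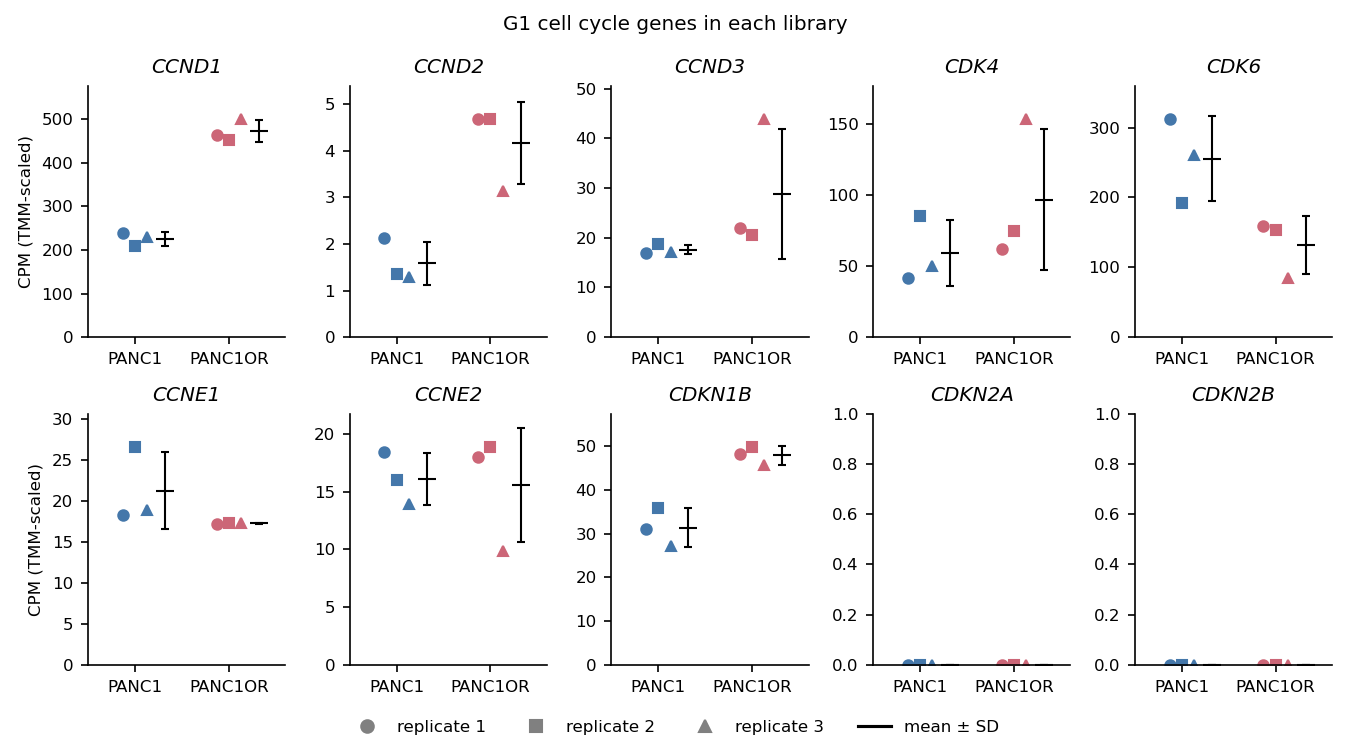
Level of each of the 10 genes in the 3 PANC1 libraries (blue) and the 3 PANC1OR libraries (red), in CPM after TMM scaling on a linear axis that starts at 0; the marker shape gives the replicate number and the black bar the mean ± SD. CCND1 is above 450 CPM in each PANC1OR library and below 240 CPM in each PANC1 library, PANC1OR replicate 3 is the outermost red point for CCND3, CDK4 and CDK6, and CDKN2A and CDKN2B lie at 0 throughout.

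CCND1 encodes cyclin D1, the D-type cyclin most often overexpressed in epithelial cancers (chromosome 11, 69641156 to 69654474, plus strand, GRCh38). Its level was 239.6, 209 and 229.7 CPM in PANC1 replicates 1 to 3 and 465, 452 and 501 CPM in PANC1OR replicates 1 to 3. The lowest PANC1OR library was well above the highest PANC1 library, and PANC1OR replicate 3 lay close to the other PANC1OR libraries. CCND1 rose from 226 ± 15.8 to 473 ± 25.2 CPM (SD, n = 3), a log2 fold change of 1.06 ± 0.16 (SE) and a fold of 2.09, at an adjusted p of 0.00300 by edgeR. The call held under each of the 17 alternative settings tried, with adjusted p-values from 5.15e-08 to 0.0285. The GC content of its longest transcript, 50.3%, is in the middle range, and its value in PANC1OR replicate 3 was 0.13 above the mean of the other PANC1OR libraries on the log2 scale.

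CCND2 encodes cyclin D2, a close relative used by lymphoid, gonadal and pancreatic islet cells among others (chromosome 12, 4269771 to 4305353, plus strand). It had few reads, 34, 13 and 21 in PANC1 and 125, 75 and 38 in PANC1OR. Scaled, these were 2.12, 1.36 and 1.28 CPM against 4.67, 4.68 and 3.14 CPM, without overlap between the lines. CCND2 rose from 1.59 ± 0.461 to 4.16 ± 0.889 CPM (SD, n = 3), a log2 fold change of 1.38 ± 0.32 (edgeR adjusted p = 0.0191). The call was lost when PANC1 replicate 2, PANC1 replicate 3, PANC1OR replicate 1 or PANC1OR replicate 2 was left out, at adjusted p-values of 0.0668 to 0.105. At this depth cyclin D2 remained a minor transcript in both lines.

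CCND3 encodes cyclin D3, the most broadly expressed of the D-type cyclins (chromosome 6, 41934934 to 42050357, minus strand). It was at 17.0, 18.7 and 17.2 CPM in PANC1 and at 22.1, 20.5 and 43.9 CPM in PANC1OR. The lines did not overlap, but PANC1OR replicate 3 stood far above the other PANC1OR libraries. The log2 fold change was 0.71 ± 0.32 and did not pass the test (edgeR adjusted p = 0.179). It shrank to 0.26 ± 0.13 without PANC1OR replicate 3 (adjusted p = 0.132) and was 0.65 ± 0.12 with GC offsets (adjusted p = 0.00261). Its transcript has 56.2% GC, the highest share among the 8 tested genes.

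CDK4 and CDK6, the kinases that D-type cyclins switch on, are close relatives with the same partners and inhibitors, and they moved in opposite directions by their means. CDK4 (chromosome 12, 57747727 to 57756013, minus strand) was at 41.7, 85.6 and 50.5 CPM in PANC1 and 62.1, 74.9 and 154 CPM in PANC1OR. The lines overlapped, since PANC1 replicate 2 exceeded PANC1OR replicates 1 and 2. The log2 fold change of CDK4 was 0.71 ± 0.40 and missed the threshold (edgeR adjusted p = 0.288). It was 0.20 ± 0.27 without PANC1OR replicate 3 (adjusted p = 0.567), and 0.54 ± 0.10 when PANC1 replicate 2 was left out as well (adjusted p = 0.000288).

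CDK6 (chromosome 7, 92604921 to 92836573, minus strand) was at 313, 191 and 261 CPM in PANC1 and 159, 153 and 84.5 CPM in PANC1OR. The PANC1OR libraries all lay below the PANC1 libraries, with PANC1OR replicate 3 the lowest. Mean levels were 255 ± 60.8 and 132 ± 41.6 CPM (SD, n = 3), and the log2 fold change of -0.95 ± 0.29 narrowly missed the threshold (edgeR adjusted p = 0.0605). Without PANC1OR replicate 3 it was smaller, -0.72 ± 0.19, yet passed at an adjusted p of 0.0168. With GC offsets it was -1.02 ± 0.13 (adjusted p = 0.000269), and DESeq2 also called it lower (adjusted p = 0.0229). CDK6 was called lower in 7 of the 17 alternatives. Its GC content was 39.7% and that of CDK4 52.0%, and in PANC1OR replicate 3 CDK6 was -0.89 and CDK4 1.18 away from the mean of the other PANC1OR libraries on the log2 scale.

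The 250 bases before a RefSeq start of CDK4, CDK6 and CDKN1B (GRCh38.p14) are printed to set the control regions of the sister kinases beside that of p27, an inhibitor of the cyclin complexes. RefSeq promoter windows matched 7 of the 10 genes, and CCND1, CCND2 and CCNE2 were not matched. Capitals mark CACGTG (the E-box bound by MYC with MAX), GGGCGG (the GC box) and CCAAT on either strand, and these motifs share no letters in the windows printed.
CDK4, chr12:57752311-57752560, minus strand: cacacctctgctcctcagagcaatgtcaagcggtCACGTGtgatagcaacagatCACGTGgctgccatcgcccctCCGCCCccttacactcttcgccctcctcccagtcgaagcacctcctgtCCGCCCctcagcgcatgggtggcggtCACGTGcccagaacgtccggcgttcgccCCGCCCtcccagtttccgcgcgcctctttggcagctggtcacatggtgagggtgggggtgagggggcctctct
CDK6, chr7:92836574-92836823, minus strand: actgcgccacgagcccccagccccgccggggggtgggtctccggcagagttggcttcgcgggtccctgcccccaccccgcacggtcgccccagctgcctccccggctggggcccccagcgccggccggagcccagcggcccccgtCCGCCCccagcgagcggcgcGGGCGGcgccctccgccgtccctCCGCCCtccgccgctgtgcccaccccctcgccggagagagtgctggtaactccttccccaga
CDKN1B, chr12:12717118-12717367, plus strand: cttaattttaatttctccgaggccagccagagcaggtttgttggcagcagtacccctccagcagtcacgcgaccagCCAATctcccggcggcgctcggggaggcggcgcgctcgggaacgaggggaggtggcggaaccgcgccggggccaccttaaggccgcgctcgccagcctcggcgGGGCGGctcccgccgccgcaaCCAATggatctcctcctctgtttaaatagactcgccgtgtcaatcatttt
The CDK4 window holds CACGTG 3 times, with its first base 216, 196 and 101 bases before the start, and GGGCGG 3 times. The CDK6 window printed holds GGGCGG 3 times, and the letters CACGTG and CCAAT are not in it. A further RefSeq start of CDK6 has a window (chr7:92833960-92834209) without any of these motifs. The CDKN1B window holds CCAAT 2 times and GGGCGG 1 time, and the letters CACGTG are not in it. Among all 35116 windows of this length, CACGTG occurs at least once in 6.35% and at least 3 times in 0.0797% (28 windows), GGGCGG at least once in 42.6% and at least 3 times in 13.9%, and CCAAT at least once in 32.01%. These matches describe letters only. MYC itself was at 83.2, 124 and 82.0 CPM in PANC1 and 59.7, 54.1 and 96.0 CPM in PANC1OR, with a log2 fold change of -0.47 ± 0.28 (edgeR adjusted p = 0.323). It was -0.77 without PANC1OR replicate 3 (adjusted p = 0.0117).

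**Figure D2:**
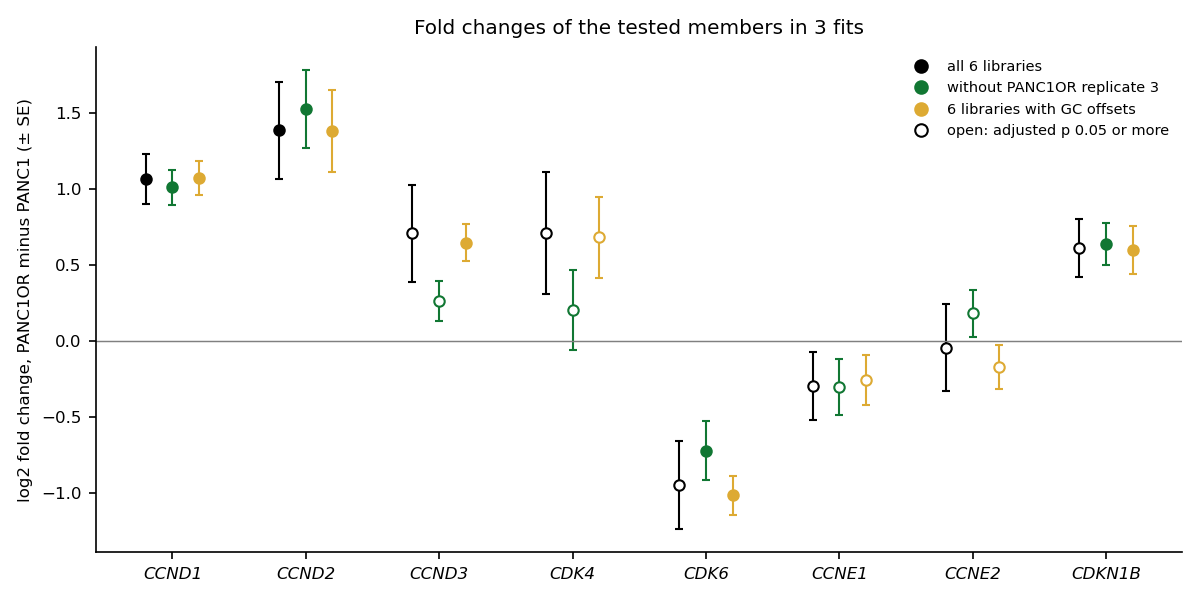
Log2 fold change, PANC1OR minus PANC1, of the 8 tested genes with its standard error, for all 6 libraries (black), without PANC1OR replicate 3 (green) and for 6 libraries with GC offsets (yellow); filled points passed an adjusted p of 0.05. CCND1 and CCND2 are filled in every fit, CDK6 and CDKN1B are filled in the latter 2 only, and CDK4, CCNE1 and CCNE2 are open in all 3.

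The E-type cyclins, partners of CDK2 at the entry to S phase, did not pass the test in any of the settings tried. CCNE1, cyclin E1 (chromosome 19, 29811991 to 29824312, plus strand), was at 18.2, 26.6 and 18.8 CPM in PANC1 and 17.2, 17.3 and 17.3 CPM in PANC1OR. PANC1 replicate 2 was high, and the other PANC1 libraries lay only slightly above the PANC1OR libraries, so that the lines did not overlap although the log2 fold change was -0.29 ± 0.22 (edgeR adjusted p = 0.436). CCNE2, cyclin E2 (chromosome 8, 94879770 to 94896678, minus strand), was at 18.4, 16.0 and 13.9 CPM against 18.0, 18.9 and 9.91 CPM. These overlapped fully, and PANC1OR replicate 3 was the lowest of all. The log2 fold change of CCNE2 was -0.04 ± 0.29 (edgeR adjusted p = 0.946) and turned to 0.18 ± 0.16 without PANC1OR replicate 3 (adjusted p = 0.375). CCNE2 has the lowest GC content of the 8 tested genes, 36.9%.

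CDKN1B encodes p27, the Cip/Kip inhibitor of cyclin E with CDK2 that is held down mainly by protein degradation (chromosome 12, 12685498 to 12722369, plus strand). It was at 31.2, 35.9 and 27.2 CPM in PANC1 and 48.2, 49.96 and 45.7 CPM in PANC1OR. Every PANC1OR library was above every PANC1 library, and the 3 PANC1OR values lay close together, replicate 3 included. Mean levels were 31.4 ± 4.39 and 47.9 ± 2.16 CPM (SD, n = 3), and the log2 fold change of 0.61 ± 0.19 narrowly missed the threshold (edgeR adjusted p = 0.0650). It was 0.64 ± 0.14 without PANC1OR replicate 3 (adjusted p = 0.00615), 0.60 ± 0.16 with GC offsets (adjusted p = 0.0132) and 0.59 ± 0.21 in DESeq2 (adjusted p = 0.0383). CDKN1B was called higher in 5 of the 17 alternatives.

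Levels without overlap between the lines were found for 6 of the 8 tested genes, namely CCND1, CCND2, CCND3 and CDKN1B on the higher side and CDK6 and CCNE1 on the lower side. The background for such a separation was 36.5% of all tested genes (18.9% higher and 17.6% lower).

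CDKN2A (chromosome 9, 21967752 to 21995301, minus strand) and CDKN2B (chromosome 9, 22002903 to 22009305, minus strand) had 0 reads in all 6 libraries. Over 41734870 reads in PANC1 and 54720151 reads in PANC1OR, a count of 0 allows up to 3 reads, which is 0.0715 CPM over the PANC1 libraries and 0.0547 CPM over the PANC1OR libraries, for counting error only. Neither inhibitor was detectable at this depth, and no fold was computed. Within 1 Mb on each side of the CDKN2A start, 34 of 59 annotated genes had 0 reads, among them interferon genes and pseudogenes. Between the pseudogene TUBB8P1, which lies inside MTAP, and DMRTA1 all 12 genes had 0 reads, including CDKN2A, CDKN2B and the antisense RNA CDKN2B-AS1. The nearest genes with reads were MTAP, an enzyme of methionine salvage that ends at 21937651, with 245 reads in PANC1 and 255 in PANC1OR, and DMRTA1, which starts at 22446824, with 1057 and 1008 reads. Their levels were 5.52 and 4.81 CPM for MTAP and 23.6 and 17.3 CPM for DMRTA1 (edgeR adjusted p = 0.688 and 0.523). A gene that is missing from the genome and one that is not transcribed both give 0 reads and cannot be told apart from these counts.

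To compare genes with one another, CPM was divided by the length of all exons in kb. In PANC1 cyclin D1 led at 47.5 CPM per kb, followed by CDK6 at 20.8 and CDK4 at 19.2, whose libraries overlapped. CCNE1 came next at 8.63 CPM per kb, then CCNE2 at 3.67, CDKN1B at 3.396 and CCND3 at 3.06, which overlapped one another, and CCND2 at 0.199. In PANC1OR CCND1 stood at 99.3 CPM per kb, CDK4 at 31.3, CDK6 at 10.8 and CCNE1 at 7.02, and the ranges of the latter pair overlapped through PANC1OR replicate 3. CDKN1B at 5.18, CCND3 at 5.00 and CCNE2 at 3.55 CPM per kb followed, again not all separated beyond their spread, and CCND2 was last at 0.521. CDK4 and CDK6 thus changed places in the order by mean, but this rests on the length used. With the length of the longest transcript CDK6 held 42.0% of their summed signal in PANC1 and 20.6% in PANC1OR, so that CDK4 led in both by mean. Without division by length it held 80.4% and 58.2%. Among all tested genes CCND1 was at percentile 96.2 of level per kb in PANC1 and 98.7 in PANC1OR, and CDK6 at 89.6 and 77.6.

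**Figure D3:**
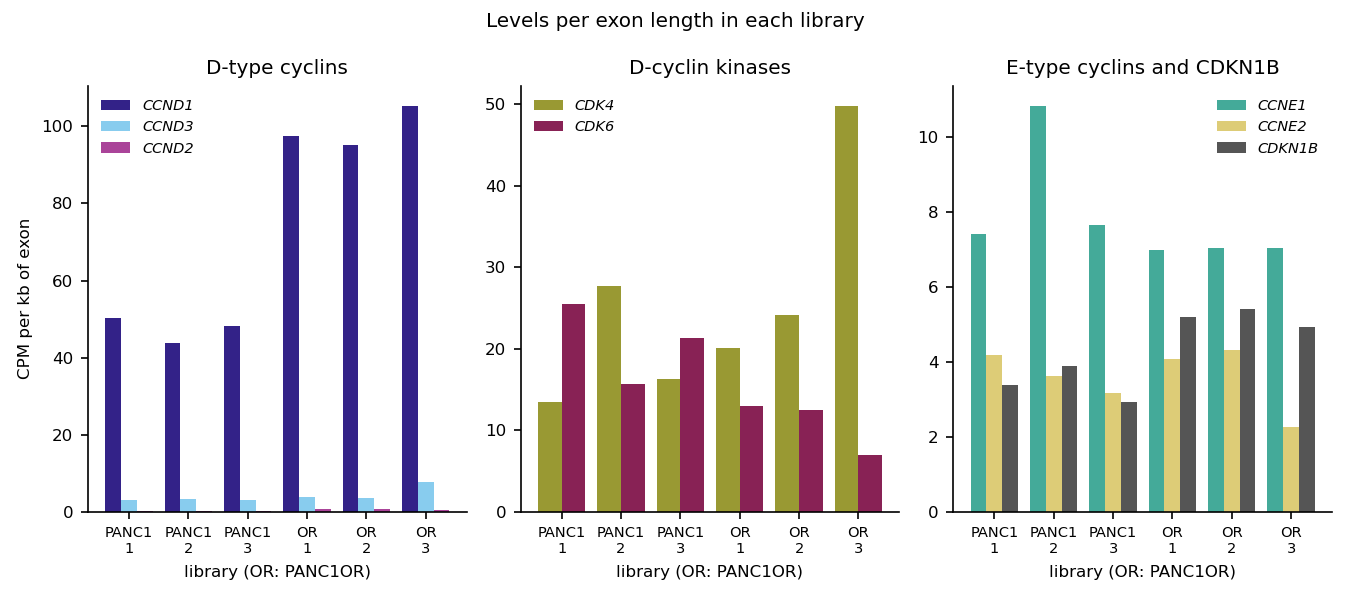
Level per exon length in each of the 6 libraries, in CPM per kb on linear axes that start at 0 and differ between panels, for the D-type cyclins, their kinases, and the E-type cyclins with CDKN1B. Cyclin D1 exceeds the other D-type cyclins in every library, and the CDK6 bar is taller than the CDK4 bar only in PANC1 replicates 1 and 3.

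Cyclin D1 made up nearly the whole D-type cyclin signal in both lines. Its share of the summed CPM per kb was 94.0, 92.8 and 93.9% in PANC1 and 95.7, 95.8 and 92.9% in PANC1OR. The shares overlapped, with means of 93.5 ± 0.676% and 94.8 ± 1.64% (two-sided exact permutation test, p = 0.3, n = 3). An exact permutation test of 3 against 3 libraries cannot go below p = 0.1. CDK6 held 65.4, 36.1 and 56.7% of the CDK4 and CDK6 signal in PANC1 and 39.4, 34.1 and 12.2% in PANC1OR. PANC1 replicate 2 fell among the PANC1OR values, and the means of 52.7 ± 15.1% and 28.5 ± 14.4% were not separated (exact permutation p = 0.2, n = 3). With GC-corrected CPM the shares no longer overlapped (53.1 ± 11.9% and 26.6 ± 7.15%, exact permutation p = 0.1, n = 3). CCNE2 held 30.2 ± 5.54% and 33.0 ± 7.65% of the E-type cyclin signal (exact permutation p = 0.7, n = 3).

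The balance between partners was then read from 7 sums and ratios of CPM per kb, chosen after the values of the single genes had been seen. The summed D-type cyclins were at 53.5, 47.2 and 51.4 CPM per kb in PANC1 and 102, 99.2 and 113 CPM per kb in PANC1OR. Their kinases CDK4 and CDK6 summed to 39.0, 43.3 and 37.7 CPM per kb in PANC1 and to 33.1, 36.7 and 56.7 CPM per kb in PANC1OR. The cyclins were thus separated between the lines (exact permutation p = 0.1, n = 3, adjusted over the 7 quantities 0.14) and the summed kinases overlapped (exact permutation p = 1.0, n = 3). The ratio of CCND1 to CDK6 was 1.97, 2.80 and 2.26 in PANC1 and 7.49, 7.60 and 15.2 in PANC1OR, where replicate 3 had the highest value. The ratio of CDKN1B to the summed E-type cyclins was 0.290, 0.269 and 0.271 in PANC1 and 0.470, 0.476 and 0.531 in PANC1OR. Both ratios were separated between the lines, at the smallest p that the design allows (exact permutation p = 0.1, n = 3, adjusted 0.14). For the summed D-type cyclins and the ratio of CCND1 to CDK6 this outcome was fixed in advance. Their single genes were each already separated between the lines, so these tests add no evidence. For the ratio of CDKN1B to the summed E-type cyclins, CDKN1B and CCNE1 were likewise each already separated. That ratio was chosen with these values known, so its test adds no evidence either.

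The nearest tested protein-coding genes to each of the 10 genes, 3 on each side, were read from the same fit. Nearest does not always mean close. The starts of TFPI2 and CDK6 are 1280475 bases apart, those of TSHZ3 and CCNE1 1337988, and those of CAAP1 and CDKN2A 4872933. Of 54 distinct neighbours 11 rose and 6 fell, beside the background of 17.8% called. Around CDK4 on chromosome 12, 4 of 6 neighbours rose. TSPAN31, a tetraspanin gene whose end overlaps that of CDK4, was at 5.91, 7.21 and 5.99 CPM in PANC1 and 15.4, 16.9 and 16.4 CPM in PANC1OR. PANC1OR replicate 3 lay between the other PANC1OR libraries, and the log2 fold change was 1.35 ± 0.21 (edgeR adjusted p = 0.00307). MARCHF9, a membrane ubiquitin ligase on the opposite strand at the other end of CDK4, rose from 1.03 to 14.9 CPM (log2 fold change 3.87 ± 0.50, edgeR adjusted p = 0.00131). Its PANC1OR values were 11.0, 9.37 and 24.3 CPM, and without PANC1OR replicate 3 the log2 fold change was 3.35 ± 0.29. AGAP2, a GTPase-activating protein of endosomal traffic, rose by 3.81 ± 0.42 on the log2 scale (adjusted p = 0.000592), and by 3.37 ± 0.23 without PANC1OR replicate 3. CYP27B1, which makes active vitamin D, rose by 1.71 ± 0.35 (adjusted p = 0.0114), and its call was lost without PANC1 replicate 1 or PANC1 replicate 2 (adjusted p-values of 0.0506 and 0.0657). OS9 (0.62 ± 0.22, adjusted p = 0.0934) and METTL1 (0.23 ± 0.26, adjusted p = 0.608) did not pass.

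Around CDKN1B all 6 neighbours had log2 fold changes between 0.37 and 1.04, and 3 of them rose. GPRC5A, an orphan receptor of epithelia, rose from 218 ± 9.004 to 399 ± 62.0 CPM (SD, n = 3; log2 fold change 0.88 ± 0.18, edgeR adjusted p = 0.0119). DUSP16, a phosphatase of MAP kinases, rose by 0.80 ± 0.20 (adjusted p = 0.0294) and CREBL2 by 0.81 ± 0.22 (adjusted p = 0.0355). The DUSP16 and CREBL2 calls were each lost without any 1 of the libraries other than PANC1OR replicate 3, at adjusted p-values of 0.0916 to 0.141 and 0.110 to 0.149. The GPRC5A call was lost without PANC1 replicate 1 or 3 (0.0683 and 0.0684). Around CCND1 the neighbours MYEOV, TPCN2, IGHMBP2, LTO1 and FADD had log2 fold changes between -0.29 and 0.15 and did not pass, while the chloride channel gene ANO1 fell by 5.25 ± 0.35 (edgeR adjusted p = 6.28e-05).

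Elsewhere the called neighbours went either way. Near CCND2, PARP11 fell by 3.46 ± 0.42 and CRACR2A by 2.77 ± 0.48 on the log2 scale (edgeR adjusted p = 0.000909 and 0.00558), and near CCND3, C6orf132 rose by 2.01 ± 0.32 (adjusted p = 0.00345). C6orf132 was highest in PANC1OR replicate 3 and rose by 1.61 ± 0.15 without that library. Near CDK6, TFPI2, a serine protease inhibitor, fell by 5.08 ± 0.50 (adjusted p = 0.000311) and SAMD9, an interferon-induced gene, rose by 2.42 ± 0.55 (adjusted p = 0.0191). SAMD9 was at 7.40, 6.87 and 1.82 CPM in PANC1OR and rose by 2.83 ± 0.26 without PANC1OR replicate 3. Near CCNE1, PLEKHF1 rose by 2.01 ± 0.54 and TSHZ3 fell by 0.88 ± 0.20 (adjusted p = 0.0351 and 0.0197). PLEKHF1 was highest in PANC1OR replicate 3, at 15.1 CPM beside 4.90 and 5.06 CPM, and its log2 fold change was 1.301 ± 0.30 without that library (adjusted p = 0.00802). TFPI2 stood at -5.68 without PANC1OR replicate 3, and CRACR2A at -3.41 without PANC1OR replicate 2. Near CCNE2 the splicing regulator ESRP1 fell by 1.90 ± 0.48 (adjusted p = 0.0288), and on chromosome 9 CAAP1 rose by 0.87 ± 0.24 (adjusted p = 0.0438). The SAMD9 and PLEKHF1 calls were lost without any 1 of the PANC1 libraries (0.0543 to 0.1 and 0.0763 to 0.140), and the TSHZ3, ESRP1 and CAAP1 calls without any 1 of the libraries other than PANC1OR replicate 3 (0.0548 to 0.205).

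**Figure D4:**
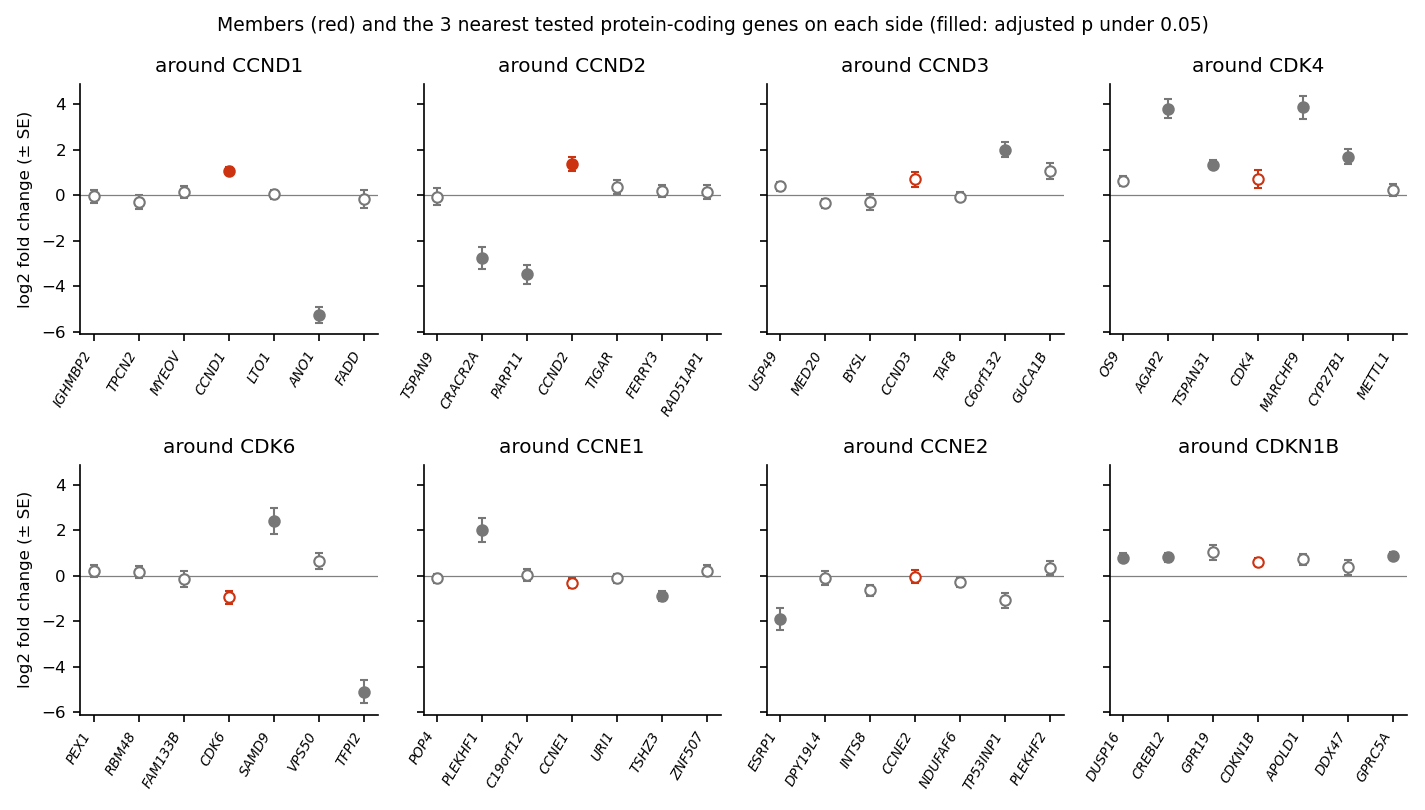
Log2 fold change with its standard error, PANC1OR minus PANC1, of each tested gene of the set (red) and the 3 nearest tested protein-coding genes on each side (grey) in chromosome order, not to distance; filled points passed an adjusted p of 0.05. Around CDK4 4 grey points are filled above 0, around CDKN1B all 6 grey points lie above 0 with 3 filled, and around CCND1 the filled red point stands among open points near 0 with ANO1 at the bottom.

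Several of the genes overlap others on the opposite strand, and with the strand setting not given, reads in the overlaps cannot be assigned to one or the other. LTO1 overlaps CCND1 and had 1224 and 1597 reads in PANC1 and PANC1OR, beside 9603 and 25744 for CCND1. TSPAN31 (262 and 881 reads) and MARCHF9 (41 and 737 reads) overlap CDK4, which had 2316 and 4726. For CCNE2, with 677 and 904 reads, the overlapping genes INTS8 had more reads (4414 and 3913) and NDUFAF6 a similar number (746 and 847). GPR19 overlaps CDKN1B with 55 and 150 reads, beside 1289 and 2643. The antisense RNAs CCND2-AS1 (2 and 13 reads) and CDK6-AS1 (5 and 0 reads) were near 0.

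Downstream of the G1 kinases, of 13 RB and E2F proteins 1 rose and none fell (median log2 fold change -0.04), beside the background of 17.8% called and a median of 0.04 over all tested genes. Leaving out PANC1OR replicate 3 gave calls of 2 higher and 3 lower (background 44.1%), and with GC offsets 3 and 2 (background 39.1%). The gene that rose was E2F7, an atypical repressor E2F, which went from 28.8 ± 1.75 to 58.3 ± 7.41 CPM (SD, n = 3; log2 fold change 1.02 ± 0.19, edgeR adjusted p = 0.00785). Its call was lost without PANC1 replicate 1 or PANC1 replicate 3 (adjusted p-values of 0.0502 and 0.0522). RBL1, which encodes the pocket protein p107, the activator E2F3 and the E2F partner TFDP1 did not pass, at 0.48 ± 0.29, -0.41 ± 0.17 and -0.40 ± 0.19. Without PANC1OR replicate 3 each of these passed (0.71, -0.37 and -0.58, adjusted p = 0.00918, 0.0274 and 0.00327). RB1 itself stood at -0.39 ± 0.33 (edgeR adjusted p = 0.498). It was -0.10 ± 0.15 without PANC1OR replicate 3 (adjusted p = 0.640) and -0.54 ± 0.11 with GC offsets (adjusted p = 0.00449). RB1 was called lower in 3 of the 17 alternatives.

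Among 26 E2F target genes of the G1 to S transition 1 rose and 4 fell, beside the background of 17.8% (median log2 fold change -0.20). The calls without PANC1OR replicate 3 were 4 higher and 14 lower, where the background was 44.1% (22.1% higher and 22.0% lower). The list's median was then -0.48, beside -0.02 over all tested genes. With GC offsets the calls were 3 higher and 11 lower, against 39.1% (20.1% higher and 19.1% lower), and the median was -0.21. UNG, the uracil DNA glycosylase, was at 103, 131 and 110 CPM in PANC1 and 41.3, 42.2 and 53.0 CPM in PANC1OR. All PANC1OR libraries were far below the PANC1 libraries, and UNG fell by 1.33 ± 0.20 on the log2 scale (edgeR adjusted p = 0.00250). CDC6, which loads the replicative helicase, fell by 0.75 ± 0.18 on the log2 scale (adjusted p = 0.0218). The helicase subunit MCM4, named after its value was seen, fell by 0.53 ± 0.15 (adjusted p = 0.0493). CDC25A, the phosphatase that activates CDK2, rose by 0.75 ± 0.20 (adjusted p = 0.0362). The CDC6, CDC25A and MCM4 calls were lost without any 1 of the libraries other than PANC1OR replicate 3 (0.0686 to 0.0835, 0.0665 to 0.181 and 0.0958 to 0.193).

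Of 10 tested further kinases, cyclins and activators of G1 and S, 2 rose and none fell (median log2 fold change 0.37), near the background of 17.8%. With PANC1OR replicate 3 left out the calls were 6 higher and 2 lower, against 44.1% (22.1% higher and 22.0% lower). With GC offsets they were 4 higher and 2 lower, against 39.1% (20.1% higher and 19.1% lower). CABLES1, a protein that links CDKs to other kinases, was at 34.4, 36.9 and 39.5 CPM in PANC1 and 118, 111 and 153 CPM in PANC1OR. It rose by 1.79 ± 0.20 (edgeR adjusted p = 0.000589), with no overlap between the lines, and CDC25A is the other gene that rose. CDK2, the partner of the E-type cyclins, was at 53.2 ± 3.64 and 73.1 ± 2.77 CPM (SD, n = 3; 0.46 ± 0.17, edgeR adjusted p = 0.108) and passed without PANC1OR replicate 3 (0.47, adjusted p = 0.00887). CABLES2 stood at -0.57 ± 0.26 (adjusted p = 0.180), and at -0.85 without PANC1OR replicate 3 (adjusted p = 0.00143).

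The 4 other CDK inhibitors were all tested, and 1 rose, beside the background of 17.8%. CDKN2D, which encodes the INK4 protein p19, was at 3.05, 4.39 and 2.87 CPM in PANC1 and 5.94, 7.06 and 11.8 CPM in PANC1OR. The lines did not overlap and PANC1OR replicate 3 was the highest, with a log2 fold change of 1.27 ± 0.34 (edgeR adjusted p = 0.0346). It was 0.93 without PANC1OR replicate 3 (adjusted p = 0.0101), and the call was lost without any 1 of the PANC1 libraries or PANC1OR replicate 2 (0.0501 to 0.158). CDKN2C, which encodes p18, stood at -0.36 ± 0.27 (adjusted p = 0.433) and passed at -0.61 without PANC1OR replicate 3 (adjusted p = 0.0386). CDKN1A, which encodes p21, stood at 0.38 ± 0.29 (adjusted p = 0.440), and CDKN1C, which encodes p57, at 0.33 ± 0.45 (adjusted p = 0.690). Without PANC1OR replicate 3 CDKN1A stood at 0.07 ± 0.18 and CDKN1C at -0.23 ± 0.30.

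Of 15 tested genes listed around the degradation of G1 cyclins and of p27, 1 rose and 2 fell (median log2 fold change -0.28), near the background of 17.8%. Leaving out PANC1OR replicate 3 gave calls of 2 higher and 7 lower, against 44.1% (22.1% higher and 22.0% lower). With GC offsets they were 2 higher and 5 lower, against 39.1% (20.1% higher and 19.1% lower). FBXO4, an F-box protein described for cyclin D1, rose from 6.89 ± 0.415 to 13.1 ± 2.23 CPM (SD, n = 3; 0.93 ± 0.23, edgeR adjusted p = 0.0246). GSK3B, the kinase that marks cyclin D1 for export and degradation, fell from 99.9 ± 15.6 to 54.6 ± 10.2 CPM (SD, n = 3; -0.87 ± 0.22, edgeR adjusted p = 0.0279). The cullin CUL4A fell by 0.74 ± 0.16 (adjusted p = 0.0140). SKP1, the adaptor of SCF ligases, stood at -0.83 ± 0.25 (adjusted p = 0.0544) and passed without PANC1OR replicate 2 or 3 (0.0467 and 0.00343). SKP2, which recognises p27, stood at -0.28 ± 0.19 (adjusted p = 0.390). The FBXO4 call was lost without any 1 of the libraries other than PANC1OR replicate 3 (0.0707 to 0.124), and those of CUL4A and GSK3B without PANC1 replicate 1, PANC1 replicate 3, PANC1OR replicate 1 or PANC1OR replicate 2 (0.0604 to 0.128).

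Among 18 tested transcription factors and chromatin proteins known to act on the CDKN genes 2 rose and 3 fell (median log2 fold change -0.22), beside the background of 17.8%. The calls without PANC1OR replicate 3 were 3 higher and 10 lower, against 44.1% (22.1% higher and 22.0% lower). With GC offsets they were 4 higher and 8 lower, against 39.1% (20.1% higher and 19.1% lower). FOXO3, an activator of CDKN1B, rose from 44.05 ± 4.79 to 81.4 ± 3.97 CPM (SD, n = 3; 0.89 ± 0.18, edgeR adjusted p = 0.0108). FOXO4 of the same family, named after its value was seen, rose from 0.560 to 2.05 CPM (1.84 ± 0.50, adjusted p = 0.0371), and its call was lost without any 1 of the PANC1 libraries (0.0800 to 0.154). FOXO1, likewise named after its value was seen, went the other way, from 1.28 to 0.277 CPM. It failed the low-count filter over the 6 libraries. Without PANC1OR replicate 3 it was tested, at a log2 fold change of -1.84 ± 0.50 (edgeR adjusted p = 0.0174). ETS2, an activator of CDKN2A, fell from 516 ± 5.72 to 211 ± 18.5 CPM (SD, n = 3; -1.29 ± 0.16, edgeR adjusted p = 0.00121). SMAD3, which carries TGF-beta signals to CDKN2B, fell by 0.81 ± 0.18 (adjusted p = 0.0176), and the histone methyltransferase KMT2A by 0.74 ± 0.19 (adjusted p = 0.0322). The FOXO3, SMAD3 and KMT2A calls were each lost without PANC1 replicate 1, PANC1 replicate 3, PANC1OR replicate 1 or PANC1OR replicate 2 (0.0535 to 0.144), and that of ETS2 held without each library.

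Of 15 mitotic proliferation genes 1 rose and 1 fell (median log2 fold change -0.15), beside the background of 17.8%. With PANC1OR replicate 3 left out the calls were 2 and 4 (background 44.1%), and with GC offsets 5 and 5 (background 39.1%). The mitotic cyclin CCNB1 fell from 255 ± 33.6 to 147 ± 4.33 CPM (SD, n = 3; -0.79 ± 0.17, edgeR adjusted p = 0.0153), and the spindle protein TPX2 rose from 715 ± 97.3 to 1129 ± 111 CPM (SD, n = 3; 0.66 ± 0.19, edgeR adjusted p = 0.0444). TOP2A stood at -0.81 ± 0.27 and CDC20 at -0.91 ± 0.34 (adjusted p = 0.0791 and 0.112), and both passed without PANC1OR replicate 3 (0.00908 and 0.00117). The CCNB1 call was lost without PANC1 replicate 3, PANC1OR replicate 1 or PANC1OR replicate 2 (0.0635 to 0.0693), and the TPX2 call without PANC1 replicate 1, PANC1 replicate 3, PANC1OR replicate 1 or PANC1OR replicate 2 (0.147 to 0.201). MKI67, the gene of the proliferation marker Ki-67, was at 1328 ± 193 and 1198 ± 74.2 CPM (SD, n = 3; -0.15 ± 0.18, edgeR adjusted p = 0.654), named after its value was seen. Of 7 tested genes near CDKN2A on chromosome 9 none passed, beside the background of 17.8%. FOCAD (0.68 ± 0.20, adjusted p = 0.0530) and HACD4 (0.63 ± 0.49, adjusted p = 0.454) passed without PANC1OR replicate 3 (0.00302 and 0.00468), where the background was 44.1%. IFNE stood at 0.33 ± 0.32 (adjusted p = 0.553).

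**Figure D5:**
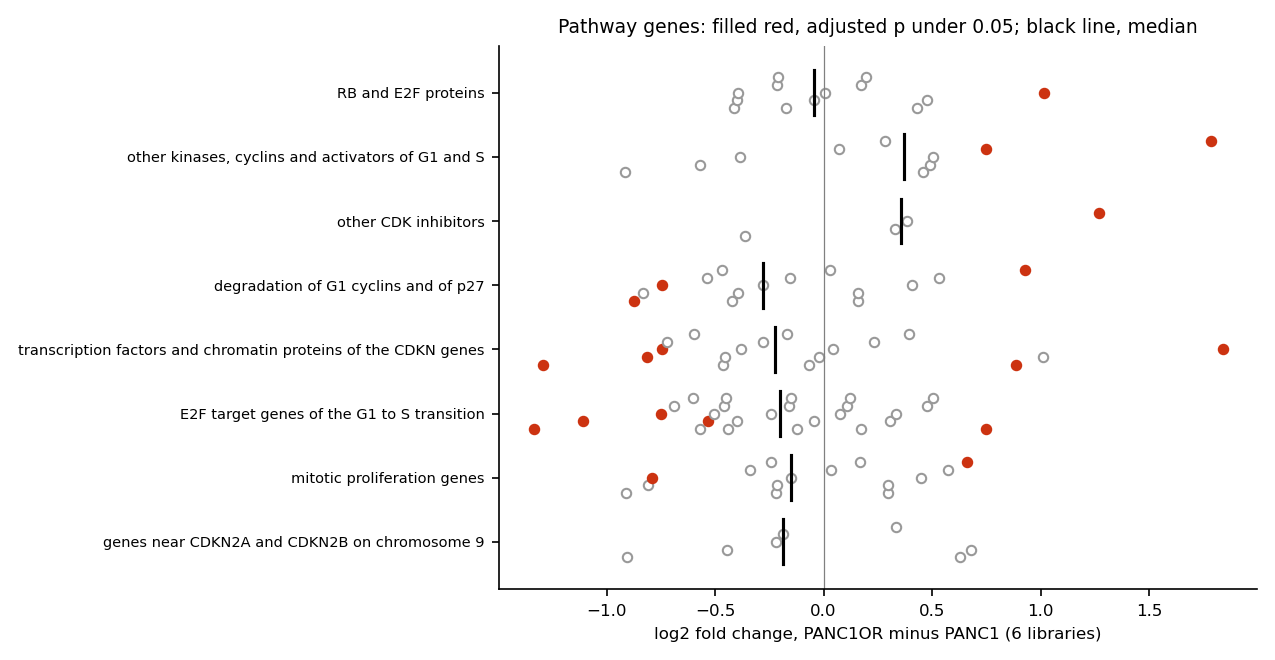
Log2 fold change, PANC1OR minus PANC1 in 6 libraries, of every tested gene in 8 lists around the G1 kinases; filled red points passed an adjusted p of 0.05, open grey points did not, and the black line is the list's median. Medians lie between -0.28 and 0.37, and filled points stand on both sides of 0 in the lists of degradation genes, transcription factors, E2F targets and mitotic genes.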

How the data were processed

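The authors deposited raw read counts for each gene. Per the submitters' processing notes, with versions also in the series design text, the steps were FastQC 0.11.5, trimming by cutadapt in Trim Galore 0.4.2, alignment by STAR 2.5 to GRCh38, and featureCounts from Subread 1.6.2. For the annotation release, the strand setting and multi-mapping reads, the settings were not given in these sources. The table held 5 columns without values, which were not used.

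The low-count filter filterByExpr in edgeR 4.0.16, run under R 4.3.3, kept 18751 genes. After TMM scaling, the quasi-likelihood F test of edgeR compared the lines over the 6 libraries, with no covariate. Adjusted p-values are Benjamini-Hochberg over all tested genes, and a gene was called under 0.05. Standard errors were derived from the F statistic. The likelihood ratio test of edgeR, which the series design text names, was an alternative, as were DESeq2 1.42.0, other scaling factors and filters, offsets for library-specific GC trends, a replicate block and leaving out libraries. Positions, exon length and GC content come from GENCODE 44 (GRCh38), which held 18638 of the tested identifiers. The scripts were tested on simulated counts. Where a gene had 0 reads in a group, a floor of 3 reads over the group was used.

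The members, the lists of related genes and the tests were chosen with earlier results of these data known. The text names all members, the genes with the lowest p-values of each list (at most 4, with a mean of 1 CPM or more), and called genes among the 3 nearest tested protein-coding neighbours on each side. It also names genes overlapping a member, apart from small RNAs and genes known only by an identifier. RB1, SKP2, MYC and MTAP are given beside these for their roles, and other additions are named as such. A gene counted among the E2F targets is not reported here.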

Additional observations from a re-analysis of the deposited data

How the results depend on the processing

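Over the alternatives, the 8 tested members gave 136 values, of which 113 kept their direction and their side of the threshold, 4 lost the call (all CCND2), 16 gained one and 3 changed sign. The sign changes were all of CCNE2, at 0.05 without PANC1 replicate 1, 0.18 without PANC1OR replicate 3 and 0.16 without PANC1 replicate 2 and PANC1OR replicate 3. CDKN1C also changed sign, to -0.23 without PANC1OR replicate 3. The number of members called was 4 with DESeq2, 5 with GC offsets, 5 with the replicate block and GC offsets together, 6 without PANC1 replicate 2 and PANC1OR replicate 3, and between 1 and 4 with each library left out in turn. With each library left out, the log2 fold change ranged from -0.20 to 0.18 for CCNE2 and from -0.23 to 0.61 for CDKN1C. The corresponding numbers of genes called in all were 7291 with GC offsets, 6369 with the block and GC offsets, 11422 without both libraries, and between 1821 (without PANC1 replicate 3) and 8663 (without PANC1OR replicate 3). With the replicate block alone 2324 genes and 2 members were called, CCND1 (adjusted p = 0.0185) and CCND2 (0.0412), where 3345 and 2 were called without it. Deviations of same-numbered libraries from their group means correlated at 0.52, -0.49 and -0.25. PANC1 replicate 2 and PANC1OR replicate 3, the libraries with a GC trend, correlated at 0.55. Whether the numbers mark a shared culture cannot be decided from these values, since each deviation is from a mean of only 3 libraries. The difference between the lines in each cyclin or kinase share moved by less than 1 SD between libraries, while the shares themselves depend on the length used. Without division by length the CDK6 share was 80.4% in PANC1 and 58.2% in PANC1OR, and the CCNE2 share 43.4% in PANC1. With the longest transcript the CCND1 share in PANC1 was 87.5%. For genes other than members, 757 of 934 values were kept, 119 lost and 57 gained a call, and 1 changed sign. Precision is limited by 3 samples a line and, for CCND2, by 13 to 125 reads a library.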
